A study of Mus musculus with 9 samples.

Results

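The cells compared here are 2 populations sorted from the tracheal epithelium of mice that lack green fluorescence from a keratin 5 reporter and differ in whether they bind a lectin. All mice were KRT5-GFP hemizygous transgenics, in which the KRT5 promoter drives green fluorescent protein (GFP). Tracheas were digested with enzymes and dissected by hand, and cells were sorted by flow cytometry on GFP and on the isolectin GSI-A3B. The lectin-only gate (GFP- lectin+) holds cells that the labels call basal cells although they lack the reporter, and the columnar gate (GFP- lectin-) holds cells labelled as columnar epithelium. A GFP+ lectin+ gate, also labelled basal, was measured beside them and is given here only for orientation. The sources used here do not state the age, sex or genetic background of the mice, or whether a replicate pooled several animals. The comparison takes in 6 of the 9 arrays, 3 per gate, and all 18193 genes, each gene represented by the probe set that was brightest on average.

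Signals are log2 values, so a difference of 1 is 2-fold. A gene was called where limma's adjusted p was under 0.05 and the difference was at least 1, and a signal of 3.56, the level under which 95% of 80 odorant and pheromone receptor probe sets lay, served as background. Values are listed as lectin-only arrays 1 to 3 and then columnar arrays 1 to 3. Errors of differences are limma standard errors (SE), and all adjusted p-values are limma's. The median signal was 4.91 to 5.16 on 8 arrays but 5.44 on lectin-only array 3, where 73.0% of probe sets exceeded the background against 65.3% to 66.3% elsewhere. Lectin-only array 3 was the highest of its gate for 759 of the 1177 genes called higher and for 301 of the 433 genes called lower. With each array centred on its own median, 974 genes (5.35%) were called higher and 699 (3.84%) lower, which moved the share of higher calls from 73.1% to 58.2%, and the median difference over all genes went from 0.07 to -0.17. In bulk samples such as these, fewer cells of a type and less RNA per cell cannot be told apart.

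Basal cells of the airway are the stem cells that lie on the basement membrane, hold on to it through hemidesmosomes and replace the ciliated and secretory cells above them. They are recognised by keratins 5 and 14 and by the transcription factor p63. The mouse tracheal epithelium also holds small patches of squamous cells, known as hillocks, that make keratin 13 and cornified envelope proteins. Leukocytes, among them dendritic cells, macrophages and T cells, live within the epithelium, and the isolectins of Griffonia simplicifolia bind terminal alpha-linked galactose or N-acetylgalactosamine on the surface of several cell types, some leukocytes and endothelial cells included.

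The lectin-only gate was far above the columnar gate in the genes that define basal cells. Of 18 measured members of a list of 20 basal cell genes, 15 were called higher and 0 lower, where 6.47% of all genes were called higher and 2.38% lower. Their median difference was 3.23, against 0.07 over all genes. Krt5, the keratin whose promoter drives the reporter, lay at 12.91, 13.02 and 12.72 in the lectin-only gate and at 6.71, 8.27 and 8.88 in the columnar gate. All lectin-only arrays were thus above all columnar ones, by 4.93 ± 0.45 (SE), or 30.4-fold, although the lectin-only cells had been sorted as reporter-negative (adjusted p = 0.00017). Against the GFP+ gate, where Krt5 read 13.44, 13.44 and 13.42, the lectin-only gate differed by -0.55 ± 0.45 and was not called (adjusted p = 0.66).

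Trp63, which encodes p63, read 11.98, 12.06 and 11.79 against 7.66, 7.29 and 7.92. The arrays within each gate were close and the gates stood 4.32 ± 0.20 apart (adjusted p = 7.6e-06). Its 3 other probe sets were dimmer on average and differed by 1.64, 0.24 and 0.23. Krt14, the partner of keratin 5, read 11.68, 11.89 and 10.72 against 4.33, 6.95 and 7.07, and the gates did not overlap (5.32 ± 0.68, adjusted p = 0.0011). Krt17, a keratin of basal and activated cells, differed by 5.51 ± 0.65 (adjusted p = 0.0007). The widest gap among the basal genes was that of Cd109, a membrane protein that binds transforming growth factor beta, at 9.37, 10.11 and 9.58 against 3.81, 4.16 and 3.93. It stood 5.72 ± 0.23 higher, or 52.8-fold, with columnar arrays near background (adjusted p = 6e-06). Bnc1, which encodes the transcription factor basonuclin of stratified epithelia, differed by 4.78 ± 0.24 as fitted and by 4.36 with dim columnar arrays set to background. The 3 members that were not called were Krt15, Pdpn and Bcam, at 0.47, 0.01 and 0.92. Krt15 (13.63, 13.98 and 13.61 against 13.55, 13.14 and 13.11) and Pdpn (12.67, 12.45 and 13.04 against 12.74, 12.77 and 12.62) were high in both gates.

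In the same list, 9 of 18 members were called lower relative to the GFP+ gate and 0 higher, where 0.896% of all genes were called lower and 2.84% higher in that comparison. The list's median difference from the GFP+ gate was -1.02, against 0.10 over all genes. Trp63 was 1.12 lower on the log2 scale than in the GFP+ gate (adjusted p = 0.014) and Bnc1 1.48 lower (adjusted p = 0.0092). Krt14 differed by -0.02 and Krt17 by 0.43, and neither was called. The summed linear signal of the 18 genes was 47072 to 60359 in lectin-only arrays, 18861 to 22110 in columnar arrays and 67210 to 77264 in GFP+ arrays.

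**Figure D1:**
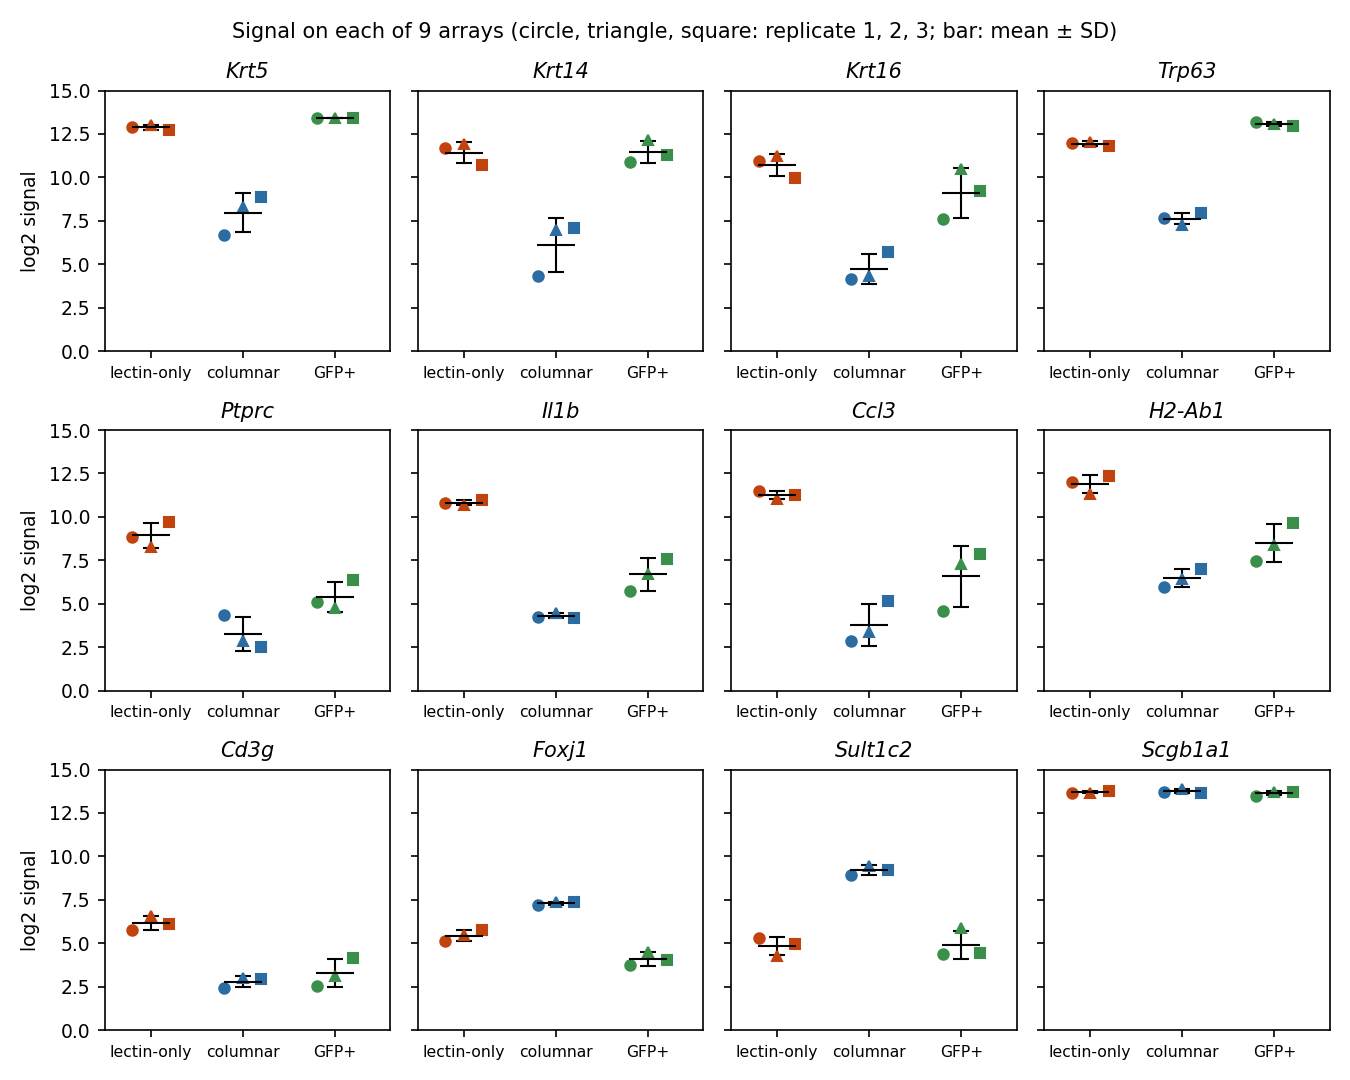
log2 signal of selected genes on each of the 9 arrays, with 1 point per array, colour for the gate, symbol for the replicate number and bars for the mean ± SD of 3 arrays. Krt5, Krt14, Krt16, Ptprc and Il1b sit higher on all 3 lectin-only arrays than on all 3 columnar arrays, and Foxj1 sits lower.

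Genes that anchor basal cells to the basement membrane moved together in part. Of 18 measured members of a list of 19, 10 were called higher and 0 lower, with a median of 1.28. Col17a1, the transmembrane collagen of hemidesmosomes, read 8.28, 9.74 and 8.56 against 3.59, 3.97 and 4.31, and the gates stood 4.90 ± 0.43 apart without overlap (adjusted p = 0.00015). Lama3 and Lamb3, which encode chains of the laminin that hemidesmosomes hold, were higher by 4.29 ± 0.26 and 3.74 ± 0.32. The other probe set of Lama3 lay at 0.18. The gene with the largest difference in the list was Tgfbi, an extracellular matrix protein that integrins bind, which was 6.12 ± 0.24 higher (adjusted p = 6e-06). The collagen IV chain Col4a2 differed by 3.92 ± 0.49 as fitted, with columnar arrays at 3.76, 2.04 and 1.96, and by 2.89 with the dim arrays at background. The linker proteins Dst and Plec, at 0.19 and 0.55, the laminin chain Lama5, at -0.28, and Itga3, at 0.54, were not called. In this list 6 members were lower than in the GFP+ gate and 0 higher, among them Col17a1 by 2.10 (adjusted p = 0.027) and Lamb3 by 2.08 (adjusted p = 0.0078).

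Squamous and cornified envelope genes were higher nearly throughout. Of 27 members, all measured, 23 were called higher and 0 lower, the median difference was 3.45, and in 26 the arrays of the gates did not overlap, which held for 16.0% of all genes in the upward direction. Their summed signal was 83138 to 102390 in lectin-only arrays, 15055 to 24382 in columnar arrays and 31639 to 78252 in GFP+ arrays. Krtdap, a small secreted protein of differentiating keratinocytes, had the largest difference, at 6.34 ± 0.91, or 81.3-fold (adjusted p = 0.0019). Its lectin-only values of 11.47, 10.99 and 10.59 were close together, whereas its columnar values of 2.46, 4.83 and 6.73 were far apart. Krt16, an activation keratin, read 10.93, 11.22 and 9.99 against 4.14, 4.32 and 5.70, again without overlap (5.99 ± 0.68, adjusted p = 0.00057).

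The same spread among columnar arrays was present in Sprr1a, Krt6a and Krt13, which were chosen after their values were seen. Sprr1a, a cornified envelope precursor, read 13.36, 13.38 and 13.28 against 6.79, 8.68 and 10.52 (4.68 ± 0.83, adjusted p = 0.0057). Krt6a read 13.13, 13.23 and 13.12 against 5.94, 8.40 and 10.19, and Krt13, the hillock keratin, 13.32, 13.51 and 13.22 against 7.82, 9.53 and 10.82. The lectin-only arrays were thus alike, while columnar array 1 was the lowest and array 3 the highest for all 3 genes. Sprr3, another envelope precursor, was 5.01 ± 0.92 higher (adjusted p = 0.007), and Sprr1b, below background on all columnar arrays, was at least 10.4-fold higher, or 3.38 on the log2 scale (adjusted p = 0.0094). The crosslinking enzyme Tgm3 and the galectin Lgals7 were higher by 5.16 ± 0.96 and 5.14 ± 0.62. The 4 members not called were Krt1 at 0.84, Krt6b at 4.73 ± 1.34 (adjusted p = 0.055), Krt10 at 0.72 and Calml3 at 0.72. Against the GFP+ gate limma called 0 of the 27 members, while 10 had an unadjusted p under 0.05 and the median difference was 1.05. The GFP+ arrays were themselves spread out, from 9.03 to 11.02 for Krtdap.

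Several squamous gene promoters are shown because members of this list rose together and because the AP-1 family of transcription factors is known to act on cornified envelope genes. The sequences are from RefSeq on build GRCm38.p6 and cover the 250 bases before the annotated start, 5′ to 3′ on the gene's strand. Capitals mark matches on either strand to TGANTCA, the core letters of an AP-1 type motif. The promoters shown were taken, in order of change, from called list members that hold these letters. A match in each was therefore fixed by the choice. The Krtdap promoter is chr7:30787655-30787904 on the plus strand, with its match 81 bases before the start. The Sprr1a promoter is chr3:92485882-92486131 on the minus strand, with matches 146 and 116 bases before the start. The Sprr1b promoter is chr3:92438780-92439029 on the minus strand, with its match 111 bases before the start.
Krtdap: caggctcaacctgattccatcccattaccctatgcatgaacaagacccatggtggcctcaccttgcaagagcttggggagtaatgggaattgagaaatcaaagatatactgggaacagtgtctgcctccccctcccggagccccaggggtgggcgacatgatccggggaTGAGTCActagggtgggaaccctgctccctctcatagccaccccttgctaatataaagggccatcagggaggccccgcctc
Sprr1a: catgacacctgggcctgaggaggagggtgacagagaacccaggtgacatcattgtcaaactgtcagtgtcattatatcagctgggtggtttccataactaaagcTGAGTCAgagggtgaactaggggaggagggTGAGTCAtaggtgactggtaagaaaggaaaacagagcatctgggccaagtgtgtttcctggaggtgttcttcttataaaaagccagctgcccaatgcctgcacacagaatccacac
Sprr1b: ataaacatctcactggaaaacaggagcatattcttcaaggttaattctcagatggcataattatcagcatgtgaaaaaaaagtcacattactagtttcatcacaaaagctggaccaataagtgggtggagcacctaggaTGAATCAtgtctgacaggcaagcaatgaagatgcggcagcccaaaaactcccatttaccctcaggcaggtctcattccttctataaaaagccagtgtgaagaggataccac
Of the 18 squamous list genes with a promoter in the RefSeq table, 9 held the motif (50.0%), namely Krt13, Krtdap, Sprr1a, Sprr1b, Ivl, Sbsn, Dmkn, Ecm1 and Serpinb2. Over the 14453 genes with a promoter, 5.58% held it, as did 9.03% of the 908 called higher and 8.01% of the 337 called lower. The 10 basal list genes with a promoter held 0 matches. A match describes these letters only, and binding at these sites was not measured.

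**Figure D2:**
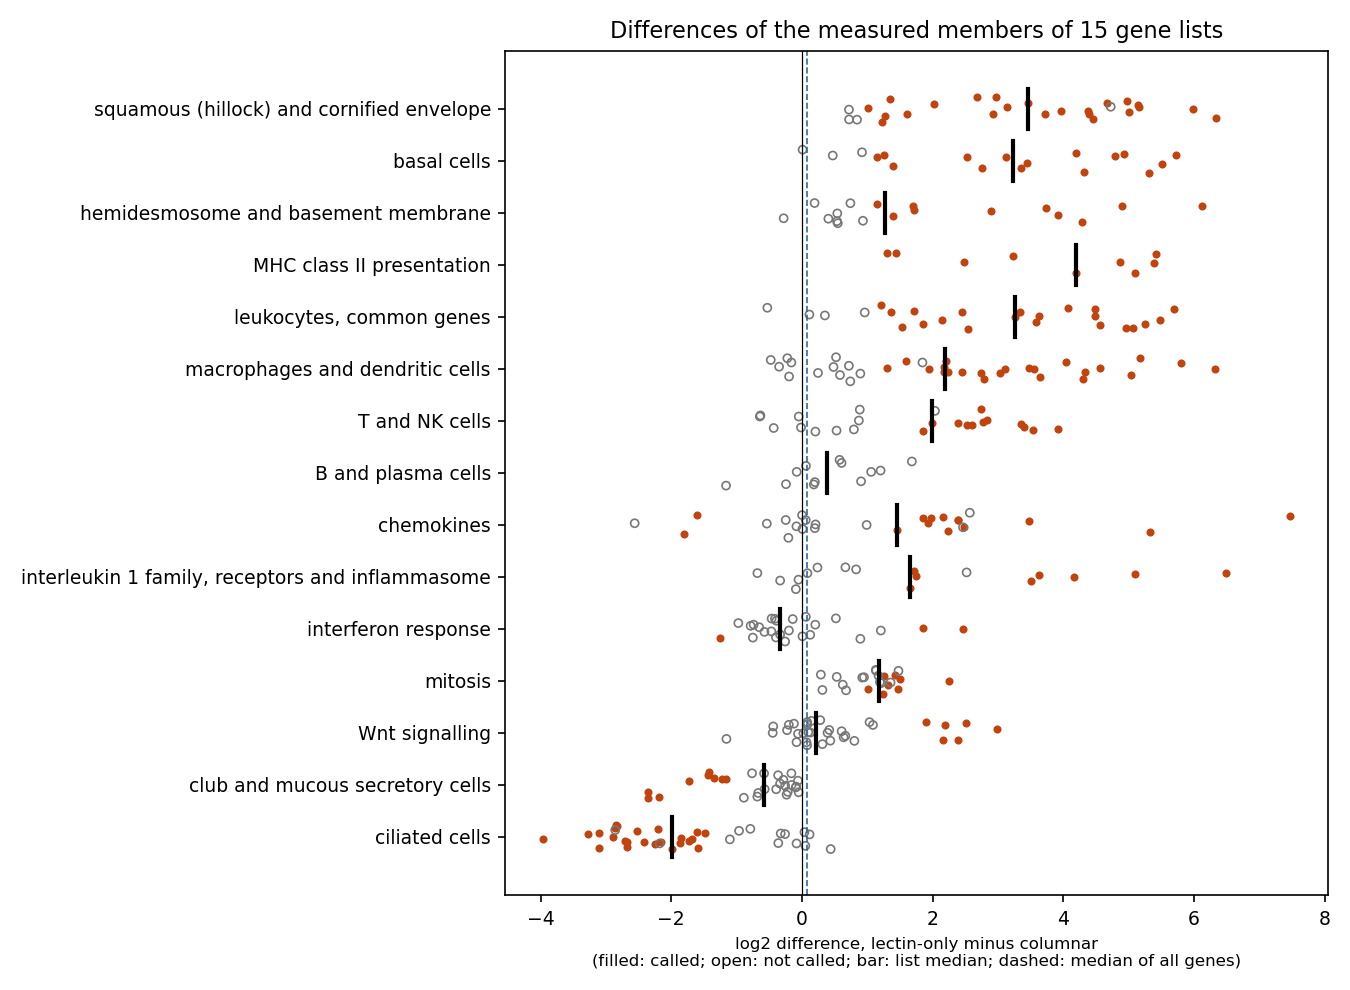
log2 difference between the lectin-only and columnar gates for each measured member of 15 gene lists, with 1 point per gene, filled where called, and the list median as a bar beside the median of all genes as a dashed line. The MHC class II, squamous and leukocyte lists lie furthest to the right, with medians of 4.19, 3.45 and 3.26, and the ciliated list lies furthest to the left, at -1.99.

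Leukocyte genes were the other large block of higher genes. Of 25 measured members of a list of 26 genes common to leukocytes, 21 were called higher and 0 lower, with a median of 3.26. Ptprc, which encodes the pan-leukocyte surface phosphatase CD45, read 8.85, 8.29 and 9.72 against 4.36, 2.86 and 2.53. All lectin-only arrays were far above the columnar ones, array 3 being the highest, and the difference was 5.70 ± 0.58, or 52.1-fold (adjusted p = 0.0003). With the 2 dim columnar arrays at background it was 5.13, and another probe set of Ptprc differed by 0.87. Srgn, the proteoglycan of leukocyte granules, was 5.48 ± 0.54 higher, and Fcer1g, the Fc receptor signalling chain, 5.25 ± 0.58 higher. Laptm5 and Coro1a, which encode a lysosomal membrane protein and an actin-binding protein of leukocytes, were higher by 5.06 ± 0.52 and 4.96 ± 0.48, and other probe sets of Laptm5 lay at 3.93, 2.30, 0.58 and -0.01. The members not called were Lcp1 at -0.53, Ptpn6 at 0.11, Cytip at 0.96 and Alox5ap at 0.35.

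The leukocyte list was also higher than in the GFP+ gate, in 20 of 25 members with 0 lower and a median of 2.50. Ptprc read 5.11, 4.73 and 6.38 in the GFP+ gate, 3.54 ± 0.58 below the lectin-only gate (adjusted p = 0.0098). The summed signal of the 25 genes was 14548 to 23257 in lectin-only, 5925 to 7121 in columnar and 4260 to 5882 in GFP+ arrays, so the lectin-only gate did not overlap either. Bright members weigh most in such sums. The list's median level was 8.38, 7.95 and 8.81 in lectin-only arrays. It was 5.02, 4.26 and 4.97 in columnar arrays and 5.28, 5.09 and 6.65 in GFP+ arrays. The epithelial genes Epcam and Cdh1 were not called. Cdh1, the epithelial cadherin, read 12.36, 12.33 and 12.20 against 12.50, 12.35 and 12.28, a difference of -0.08 ± 0.16 (adjusted p = 0.86), and Epcam differed by 0.03 ± 0.30 (adjusted p = 0.97), a sign that turns when arrays are centred. The part of leukocyte RNA in the other gene differences was not tested.

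Genes of macrophages and dendritic cells, the phagocytes and antigen-presenting cells of the airway wall, followed with 23 of 36 called higher and 0 lower, and a median of 2.19. C1qb, a chain of the complement component C1q made by macrophages, read 12.58, 12.01 and 12.80 against 6.19, 3.59 and 8.64. The lectin-only arrays were alike and the columnar ones far apart, for a difference of 6.32 ± 1.10 (adjusted p = 0.0053). Cd83, a surface protein of mature dendritic cells, read 10.73, 11.05 and 11.01 against 3.62, 6.36 and 5.40 (5.80 ± 0.68, adjusted p = 0.00068). Ms4a7, a macrophage membrane protein, read 8.32, 8.57 and 8.66 against 3.53, 3.10 and 3.79, a difference of 5.04 ± 0.28 (adjusted p = 2e-05), with another probe set at 0.25. Itgax, the integrin chain CD11c, read 8.28, 8.08 and 8.84 against 3.63, 3.78 and 4.13. It was 4.56 ± 0.35 higher (adjusted p = 8.4e-05), with columnar arrays just above background. Clec7a, the beta-glucan receptor dectin-1, was below background on all columnar arrays and at least 19.2-fold higher in the lectin-only gate (adjusted p = 0.00019).

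Several further members, chosen after their values were seen, show which phagocyte genes were in play. Adgre1, the macrophage marker F4/80, read 7.59, 7.54 and 8.29 against 4.15, 3.35 and 3.81, and the mannose receptor Mrc1 7.29, 7.54 and 7.98 against 3.49, 2.38 and 3.93. The C1q chains C1qa and C1qc were higher by 3.64 ± 0.34 and 4.30 ± 0.44. Csf1r, the receptor for the macrophage growth factor, was higher by 3.10 ± 0.61. By contrast Marco and Msr1, scavenger receptors of alveolar macrophages, read between 4.05 and 5.33 on the 6 arrays, and Xcr1 and Flt3, genes of a dendritic cell subset and its growth factor receptor, between 2.40 and 3.62, and none of these was called. Lyz2 and Cd14, which are often taken as myeloid markers, read between 12.41 and 13.87 in both gates and differed by -0.22 and -0.20. Against the GFP+ gate 23 of the 36 members were called higher and 0 lower. The summed signal was 35926 to 45294 in lectin-only, 23939 to 24082 in columnar and 12052 to 17256 in GFP+ arrays. Bright members such as Lyz2 and Cd14 weigh most in these sums. The list's median level was 7.27, 6.83 and 7.15 in lectin-only arrays. It was 4.07, 3.81 and 4.30 in columnar arrays and 4.08, 4.28 and 4.41 in GFP+ arrays.

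MHC class II genes, whose products display peptides to helper T cells, were called higher in all 9 measured members of a list of 10, with a median of 4.19. H2-Ab1 read 11.98, 11.31 and 12.38 against 5.97, 6.42 and 7.03, a difference of 5.42 ± 0.52 (adjusted p = 0.00022). H2-Aa and H2-Eb1, which encode further class II chains, were higher by 5.38 ± 0.66 and 5.10 ± 0.44. Cd74, the invariant chain that guides class II molecules, read 12.66, 12.48 and 12.61 against 7.45, 7.01 and 8.67, with the lectin-only arrays nearly equal (4.87 ± 0.44, adjusted p = 0.00017). Ciita, the coactivator that turns on class II genes, was chosen after its values were seen and read 4.49, 5.16 and 5.19 against 3.43, 3.27 and 3.85 (1.43 ± 0.26, adjusted p = 0.0064). H2-DMb2 read 7.35, 5.26 and 9.05 against columnar arrays below background, at least 12.7-fold higher (adjusted p = 0.016), a call that ended without lectin-only array 1 (adjusted p = 0.0613) or columnar array 1 (adjusted p = 0.056). Against the GFP+ gate 7 of the 9 were called higher, H2-Ab1 by 3.39 (adjusted p = 0.0075). Summed over the list, the signal was 14063 to 19021 in lectin-only arrays, 393 to 988 in columnar arrays and 961 to 3200 in GFP+ arrays.

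Among T and natural killer cell genes, 12 of 23 measured members of a list of 29 were called higher and 0 lower, with a median of 1.99. Il7r, the interleukin 7 receptor of lymphocytes, read 7.76, 6.89 and 7.81 against 3.49, 3.82 and 3.41, with no overlap (3.92 ± 0.59, adjusted p = 0.0025). Cd3g, a chain of the T cell receptor complex, was below background on all columnar arrays and at least 6.01-fold higher, at 5.77, 6.58 and 6.09 (adjusted p = 0.00058). The costimulatory receptor Icos and the granule protease Gzma were higher by 3.53 ± 0.51 and 3.41 ± 0.53, and Nkg7, a granule protein of cytotoxic cells, by 2.83 ± 0.44. Levels were moderate, the highest value among these 5 genes being 7.83, of Gzma on lectin-only array 3. Cd4 read between 3.33 and 4.12 on the 6 arrays, Cd28 between 2.22 and 2.68, and Cd8a 4.49, 4.49 and 6.48 against 4.12, 4.14 and 4.82, and none of these was called. The summed signal of the list was 1991 to 2898 in lectin-only, 1637 to 1994 in columnar and 956 to 1413 in GFP+ arrays. The lectin-only and columnar sums, in which bright members weigh most, thus met at the edges of their ranges. The list's median level stood apart, at 5.50, 5.47 and 5.95 against 3.59, 3.37 and 3.54.

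The B cell and mast cell lists held few calls, and the neutrophil list held more. Among 12 measured B and plasma cell genes limma called 0 higher and 0 lower, 3 had an unadjusted p under 0.05, and the largest difference was that of Ighm, the heavy chain of immunoglobulin M, at 6.74, 5.98 and 8.85 against 5.28, 4.93 and 6.31 (1.68 ± 0.65, adjusted p = 0.16). Ms4a1, which encodes CD20, lay below background on 5 of the 6 arrays and at 5.09 on lectin-only array 3. In this list 1 gene was called lower under 7 alternatives, centring among them, and 1 was called higher with a replicate block (Ighm, adjusted p = 0.024) or without lectin-only array 1 (Blk, a B cell kinase, at 1.64, adjusted p = 0.0355). Of 12 mast cell and basophil genes, Kit was higher by 2.43 ± 0.26 (adjusted p = 0.00042), but its GFP+ arrays, at 7.78, 7.56 and 7.88, lay above the lectin-only ones, at 6.69, 6.67 and 6.99. Hdc, the enzyme that makes histamine, was lower by 1.93 on the log2 scale (adjusted p = 0.032), and its call ended without lectin-only array 1 or 2 or without any 1 of the columnar arrays (adjusted p from 0.0563 to 0.102). The proteases and IgE receptor chains Cpa3, Tpsb2, Mcpt4, Fcer1a and Ms4a2 read at most 4.56 on the 6 arrays. Of 15 neutrophil genes 4 were called higher and 0 lower, against 6.47% and 2.38% of all genes. They included Il1r2, a decoy receptor, at 4.16 ± 0.50, and the metalloproteinase Mmp9, at 1.04 ± 0.28 (adjusted p = 0.046). The call of Mmp9 ended with arrays centred (adjusted p = 0.111) and without any 1 of the columnar arrays (adjusted p from 0.0619 to 0.152). S100a8 and S100a9, subunits of calprotectin, which neutrophils and activated epithelium both make, were higher by 5.15 ± 0.37 and 5.11 ± 0.60. Elane, Mpo, Cxcr2 and Mmp8, more restricted to neutrophils, read at most 3.58 and were not called.

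**Figure D3:**
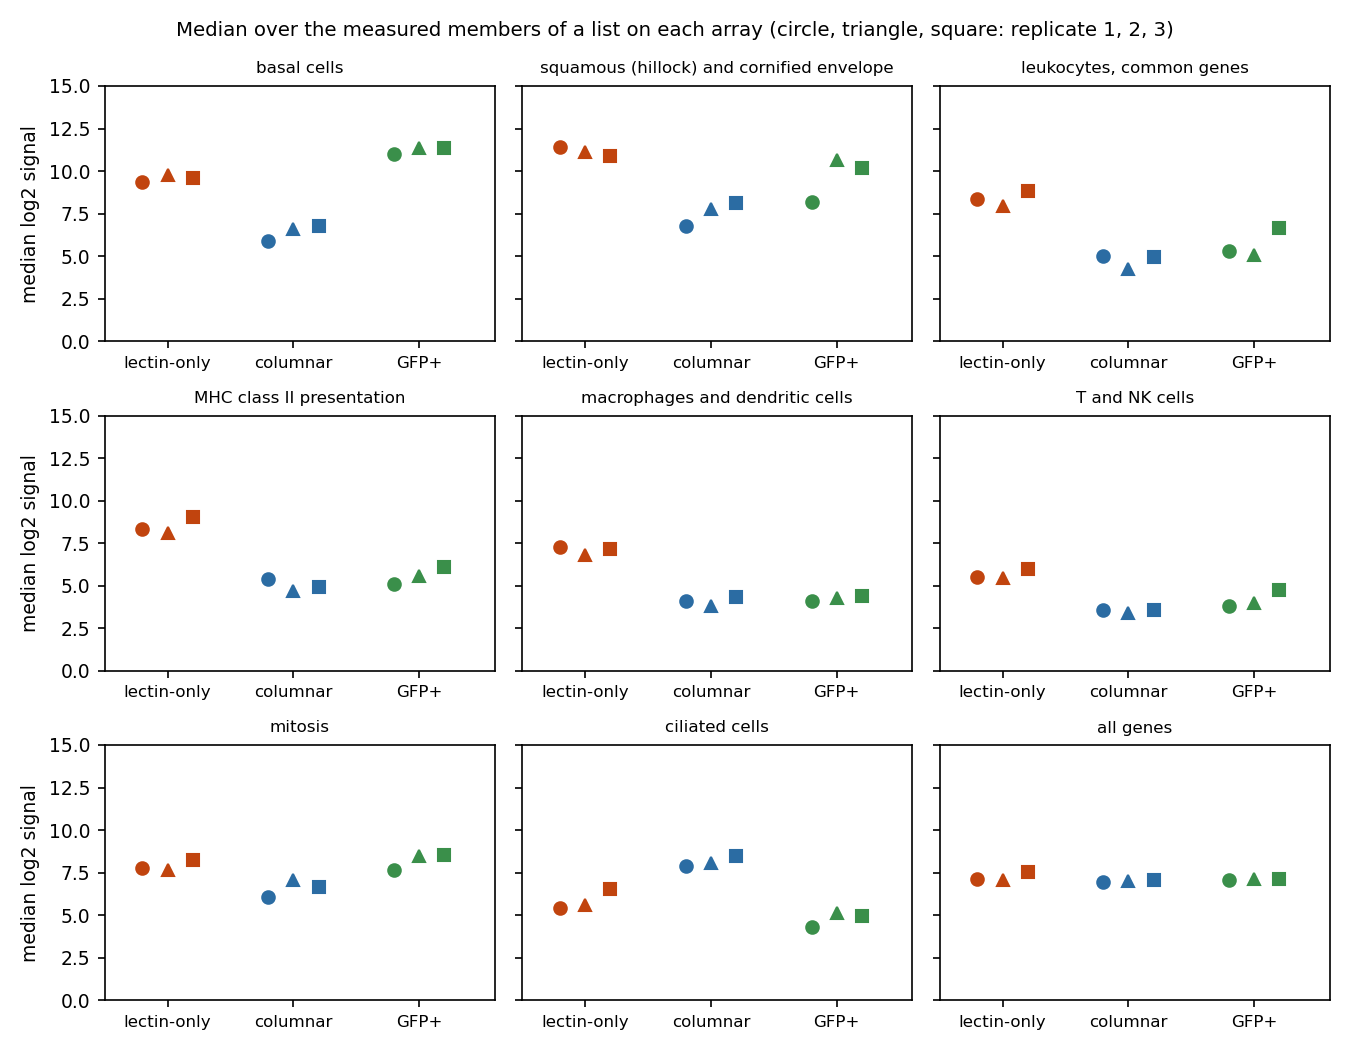
Median log2 signal of the measured members of selected gene lists on each of the 9 arrays, with 1 point per array, colour for the gate and symbol for the replicate number. For leukocyte genes the lectin-only medians of 7.95 to 8.81 stand above both other gates, for basal genes the GFP+ medians of 11.02 to 11.35 are highest, and for ciliated genes the columnar medians of 7.87 to 8.47 are highest.

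Chemokines, which attract leukocytes, showed 12 of 27 measured members called higher and 2 lower, with a median of 1.46. Ccl3, a chemokine that macrophages make, read 11.51, 11.02 and 11.24 against 2.84, 3.37 and 5.13. The lectin-only arrays were close together, and with the 2 dim columnar arrays at background the difference of 7.47 ± 0.81 became 7.17 (adjusted p = 0.00044). Ccl4, its close relative, read 9.20, 9.64 and 9.49 against 3.44, 4.27 and 4.63 (5.33 ± 0.39, adjusted p = 6.4e-05). Ccl2, the monocyte attractant, was 2.47 ± 0.26 higher, and Cxcl14 was at least 9.08-fold higher, with values of 5.77, 6.83 and 7.62 against columnar arrays below background (adjusted p = 0.0028). Ccl5 was higher by 2.39 ± 0.64 (adjusted p = 0.042), a call that ended without any 1 of 5 of the 6 arrays (adjusted p from 0.0728 to 0.143). The 2 members called lower were epithelial chemokines chosen after their values were seen, Ccl28 by 1.80 on the log2 scale (adjusted p = 0.034) and Cxcl15 by 1.61 (adjusted p = 0.0046), and 1 of the 2 calls ended without any 1 of lectin-only arrays 1 and 2, columnar arrays 1 and 3 and GFP+ array 2. Cxcl1 and Cxcl5, neutrophil attractants, differed by 0.00 and -0.21.

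Among 15 measured chemokine receptors, 7 were called higher and 0 lower. The lymphocyte receptors Cxcr3 and Cxcr6 read 5.53, 5.30 and 5.65 and 5.21, 4.23 and 5.13 in the lectin-only gate. Cxcr3 was 2.10 ± 0.20 higher and Cxcr6, below background on all columnar arrays, at least 2.46-fold higher. The monocyte receptors Cx3cr1 and Ccr1 were higher by 2.20 ± 0.27 and by at least 2.20-fold. Ackr3, an atypical receptor that scavenges CXCL12, differed in another way: it read 10.37, 10.09 and 10.88 against 8.38, 8.51 and 8.99 (1.82 ± 0.25, adjusted p = 0.0016), but was highest in the GFP+ gate at 11.48, 11.40 and 11.79 (lectin-only lower by 1.11, adjusted p = 0.041).

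Of 17 measured genes of the interleukin 1 family, its receptors and the inflammasome, 8 were called higher and 0 lower, with a median of 1.65. Il1b, the secreted inflammatory cytokine, read 10.80, 10.69 and 10.95 against 4.27, 4.47 and 4.21, with close values within each gate (6.50 ± 0.38, or 90.4-fold, adjusted p = 2.6e-05). Its GFP+ arrays were between the other gates and farther apart, at 5.74, 6.73 and 7.60. Il33, an alarmin stored in epithelial nuclei, read 10.09, 10.18 and 10.40 against 6.16, 3.66 and 5.56 (5.10 ± 1.04, adjusted p = 0.012). Il1a and the receptor antagonist Il1rn were higher by 3.63 ± 0.49 and 3.50 ± 0.52. Il1r2, the decoy receptor, read 8.08, 8.11 and 9.45 against 3.28, 4.83 and 5.04 (4.16 ± 0.50, adjusted p = 0.00072), while its GFP+ values of 8.71, 9.11 and 9.18 gave a lectin-only difference of -0.45 that was not called. The inflammasome genes Nlrp3 and Pycard, chosen after their values were seen, were higher by 1.72 ± 0.20 and 1.65 ± 0.29.

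Other cytokines were called higher in 8 of 26 measured members and lower in 0. Tnfsf13b, the B cell survival factor BAFF, was higher by 3.20 ± 0.43 (adjusted p = 0.0013, other probe sets at 0.44 and 0.21), Osm, oncostatin M, by 2.39 ± 0.26 (adjusted p = 0.00046) and Tnfsf9, the ligand of 4-1BB, by 1.88 ± 0.38 (adjusted p = 0.011). Il17a and Il10, below background on all columnar arrays, were at least 3.38-fold and 2.35-fold higher, at lectin-only levels of 4.75, 5.28 and 5.91 and of 4.77, 4.66 and 4.93. Of 22 NF-kappa-B pathway genes 5 were called higher, against 6.47% of all genes, and 3 with arrays centred. Among the 5 were the bacterial lipoprotein receptors Tlr1, at least 4.84-fold, and Tlr2, by 1.51 ± 0.27, and the nuclear inhibitor Nfkbid, by 2.83 ± 0.36. The other 2, Rel at 1.23 and Tlr7, at least 1.61-fold higher, lost the call with arrays centred, at 0.99 and 0.88, and without lectin-only array 1. Rel also lost it without lectin-only array 3 or any 1 of the columnar arrays (limma adjusted p from 0.0715 to 0.0982). Tlr7 also lost it under further quantile normalization, at 0.88. Other probe sets of Tlr7, dimmer on average, differed by more, at 3.17 and 2.69. Interferon response genes had a median of -0.33, against 0.07 over all genes. Of 25, 2 were called higher and 1 lower, near the 6.47% and 2.38% of all genes. Cxcl10 was higher by 1.85 ± 0.19 (adjusted p = 0.00036), whereas Irf7, the main amplifier of the type I interferon response, read 8.06, 7.83 and 8.41 against 9.32, 8.87 and 9.88 (-1.26 ± 0.26, adjusted p = 0.013). Oasl1 was higher by 2.46 ± 0.59 (adjusted p = 0.026), but not without any 1 of the lectin-only arrays or of columnar arrays 1 and 2 (adjusted p from 0.0578 to 0.0936). With arrays centred, 3 interferon genes were called lower, and without columnar array 3, 0 were.

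Among the lists, that of ciliated cells held the most genes lower in the lectin-only gate. Of 37 measured members of a list of 42 ciliated cell genes, 24 were called lower and 0 higher, with a median of -1.99. Foxj1, the master transcription factor of motile cilia, read 5.11, 5.46 and 5.75 against 7.18, 7.36 and 7.36, and the gates did not overlap (-1.86 ± 0.24, adjusted p = 0.0012). Tmem212, a membrane protein gene of multiciliated cells, had the largest difference in the list at -3.97 ± 0.79, with lectin-only values that were spread out (6.27, 4.57 and 7.81) against 9.62, 10.05 and 10.87. The axonemal dynein Dnah9 was lower by 3.28 ± 0.60 as fitted, and Zmynd10, a dynein assembly factor, by 2.90 ± 0.45. Hydin, a protein of the central pair of the axoneme, was below background on all lectin-only arrays and at least 4.53-fold lower, with columnar values of 5.30, 6.19 and 5.71 (adjusted p = 0.00011). The other probe sets of Hydin and Dnah9 lay at 0.18 and 0.19.

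Not every ciliated gene was lower. The regulators Rfx2, Rfx3 and Myb, which act upstream or alongside Foxj1, differed by 0.04, -0.32 and 0.05, and the tubulin Tubb4b by -0.26. These genes read between 6.83 and 12.25 in both gates. Against the GFP+ gate, 3 of the 37 members were higher in the lectin-only gate and 0 lower, Foxj1 among them by 1.35 (adjusted p = 0.014). The list's median level was 5.41, 5.60 and 6.54 on the lectin-only arrays, with array 3 the highest, 7.87, 8.08 and 8.47 on the columnar arrays and 4.33, 5.10 and 4.95 on the GFP+ arrays.

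Promoters of 2 ciliated genes are shown because RFX factors, together with FOXJ1, are known to act on genes of motile cilia. The sequences are again from RefSeq on GRCm38.p6, 5′ to 3′ on the gene's strand, with capitals at matches to GTTGCCA, letters of a site of RFX factors, or its reverse complement. They too were taken, in order of change, from called list members that hold a match. The Cdhr3 promoter, of the cadherin that was lower by 3.11 ± 0.48 in the lectin-only gate, is chr12:33092876-33093125 on the minus strand, with its match on the opposite strand 7 bases before the start. The Hydin promoter is chr8:110266727-110266976 on the plus strand, with its match on the opposite strand 14 bases before the start.
Cdhr3: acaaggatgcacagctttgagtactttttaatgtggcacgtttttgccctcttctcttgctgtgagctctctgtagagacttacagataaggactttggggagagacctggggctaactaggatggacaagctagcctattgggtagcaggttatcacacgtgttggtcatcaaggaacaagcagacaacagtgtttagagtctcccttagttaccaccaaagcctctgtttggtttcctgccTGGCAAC
Hydin: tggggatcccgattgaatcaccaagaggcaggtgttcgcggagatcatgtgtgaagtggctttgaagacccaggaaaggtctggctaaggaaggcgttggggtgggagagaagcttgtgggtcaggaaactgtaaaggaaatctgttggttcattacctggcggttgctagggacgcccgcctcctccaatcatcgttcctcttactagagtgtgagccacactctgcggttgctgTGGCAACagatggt
These letters stood in 4 of 33 ciliated list promoters (12.1%), in 8.61% of the 337 promoters of genes called lower, in 2.20% of the 908 of genes called higher and in 3.52% of all 14453.

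Secretory genes were lower in part. Of 28 members of the club and mucous cell list, 9 were called lower and 0 higher, with a median of -0.58, and in 20 the lectin-only arrays lay below all columnar arrays, against 8.61% of all genes. Tff2, a trefoil peptide secreted with mucus, read 8.55, 8.40 and 8.84 against 10.67, 10.86 and 11.32 (-2.35 ± 0.28, adjusted p = 0.00073). Creb3l1, a transcription factor of the secretory pathway, was lower by 1.44 ± 0.19 (adjusted p = 0.0014). Muc5b, the main gel-forming mucin, read 11.36, 11.48 and 11.36 against 13.07, 13.19 and 13.14, gates that stood well apart (-1.73 ± 0.42, adjusted p = 0.026). The fit pools the spread over all gates, and the Muc5b values of the GFP+ gate ranged from 8.63 to 10.65. Its call ended without any 1 of the 6 arrays (adjusted p from 0.0576 to 0.0832), and calls of Foxa3, at -2.35, and Gp2, at -2.19, also ended when single arrays were left out. The count of 9 was 4 without lectin-only array 1, columnar array 2 or columnar array 3, and 5 without lectin-only array 2.

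The abundant club cell products were not called. Scgb1a1, the club cell secretoglobin, read 13.66, 13.65 and 13.78 against 13.69, 13.88 and 13.67 (-0.05 ± 0.16, adjusted p = 0.91, with a sign that turns under further quantile normalization). It was about as high in the GFP+ gate, at 13.49, 13.73 and 13.70 (lectin-only difference 0.05, limma adjusted p = 0.94). Whether such high signals still follow the amount of RNA was not tested. Scgb3a1, Scgb3a2, Bpifa1, Cyp2f2 and Cbr2 differed by between -0.36 and -0.06, with all signals at 13.46 or above on the 6 arrays. Compared with the GFP+ gate, 8 of the 28 were higher in the lectin-only gate and 0 lower, Tff2 by 1.93 (adjusted p = 0.006) and Muc5b by 1.90 (adjusted p = 0.035).

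Brush cell and neuroendocrine cell lists held 0 calls under limma with all arrays as deposited. Of 13 measured brush cell genes, 1 had an unadjusted p under 0.05, Pou2f3, the transcription factor that specifies these chemosensory cells (0.99 ± 0.22, adjusted p = 0.018, just under the size threshold). It passed without lectin-only array 2, at 1.14, or columnar array 1, at 1.08. Of 10 measured neuroendocrine genes 2 had an unadjusted p under 0.05. The granule protein Scg5 read 7.60, 3.80 and 5.73 on the columnar arrays against 4.22, 3.37 and 4.61, so columnar array 1 stood out, and its difference of -1.64 ± 0.77 was not called (adjusted p = 0.26). Without columnar array 2 it was -2.60 and called (adjusted p = 0.0199). The neuroendocrine list held 2 genes called lower with arrays centred and 1 under further quantile normalization.

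Beyond these lists, the largest decreases belonged to genes of several kinds. Ldb3, a sarcomere Z-disc protein in muscle, read 6.14, 4.74 and 4.22 against 10.29, 10.29 and 9.68 (-5.05 ± 0.61, adjusted p = 0.0008). The cytosolic sulfotransferases Sult1c2 and Sult1c1 were lower by 4.36 ± 0.41 and 4.23 ± 0.55, and the histamine-degrading enzyme Aoc1 and the cadherin Cdh26 by 4.24 ± 0.40 and 4.24 ± 0.38. Bex4 read 3.97, 3.76 and 4.40 against 7.52, 8.18 and 7.78, with close values within each gate (-3.78 ± 0.27, adjusted p = 5.8e-05). Opn4, the photopigment melanopsin of the retina, was lower by 3.98 ± 0.54, with another probe set at -0.39, and Pnliprp1, a pancreatic lipase relative, by 3.64 ± 0.55. Erich2 was lower by 3.77 ± 0.33, with another probe set at -0.47. In all of these the lectin-only arrays lay below every columnar array, which was a condition for being named among the largest decreases.

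A pair of the 12 largest decreases are thyroid genes, and they differed between columnar arrays more than the others. Tg, thyroglobulin, read 13.02, 6.45 and 9.47 on columnar arrays 1 to 3 and lay below background on all lectin-only arrays, so it was at least 68.0-fold lower (adjusted p = 0.017). The call ended without lectin-only array 1 (adjusted p = 0.0636) or 3 (adjusted p = 0.057). Iyd, the enzyme that recycles iodide from iodotyrosines, read 9.54, 7.13 and 7.19 on the columnar arrays against 3.21, 4.46 and 5.09 (-3.70 ± 0.67, adjusted p = 0.0064). Slc5a5, the iodide transporter, chosen after its values were seen, read 7.34, 4.24 and 5.16 in the columnar gate and 3.24, 2.46 and 4.98 in the lectin-only gate (-2.02 ± 0.81, adjusted p = 0.17). Columnar array 1 was the highest for all 3 genes. The part of thyroid RNA in other differences was not tested.

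The remaining large increases include genes outside the lists above. Aldh1a3, an enzyme that makes retinoic acid, read 10.22, 10.01 and 10.49 against 2.33, 3.14 and 6.23 (6.34 ± 1.23, adjusted p = 0.009, and 5.79 with dim arrays at background). Rbp2, a retinol-binding protein best known from the intestine, read 10.93, 11.05 and 10.66 against 4.46, 3.70 and 6.88 (5.86 ± 1.04, adjusted p = 0.0059). For both, columnar array 3 was the highest of its gate, and the GFP+ arrays split into 1 low value (4.95 and 6.03 on array 1) and 2 high ones. The carboxylesterase gene Ces2f was 5.74 ± 0.37 higher (adjusted p = 3.7e-05). Tpm2, a tropomyosin, read 9.95, 10.11 and 9.17 against 3.20, 4.31 and 3.94 (5.93 ± 0.41, adjusted p = 5.6e-05), and its other probe sets lay at 5.98, 3.55 and 0.04.

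The sort rested on a lectin that binds glycans, so genes of glycan synthesis were examined. Of 17 measured members of a list of 18, 2 were called lower and 0 higher, against 2.38% and 6.47% of all genes, with a median of 0.09. Ggta1 was not analysed here. The count of higher genes was 1 under 7 alternatives, among them the fit to the gates compared, the mean of probe sets and leaving out GFP+ array 1 or 2. St6gal1, which caps glycans with sialic acid in alpha-2,6 linkage, read 6.23, 5.77 and 6.87 against 8.94, 8.86 and 9.28 (-2.74 ± 0.40, adjusted p = 0.0023). It was lowest in the GFP+ gate, at 3.84, 4.60 and 5.46. Another probe set of St6gal1 differed between the lectin-only and columnar gates by only -0.39. Fut2, the fucosyltransferase behind secretor-type H antigens, was lower by 1.72 ± 0.31 (adjusted p = 0.0067), but by only 0.91 with the mean of its probe sets.

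**Figure D4:**
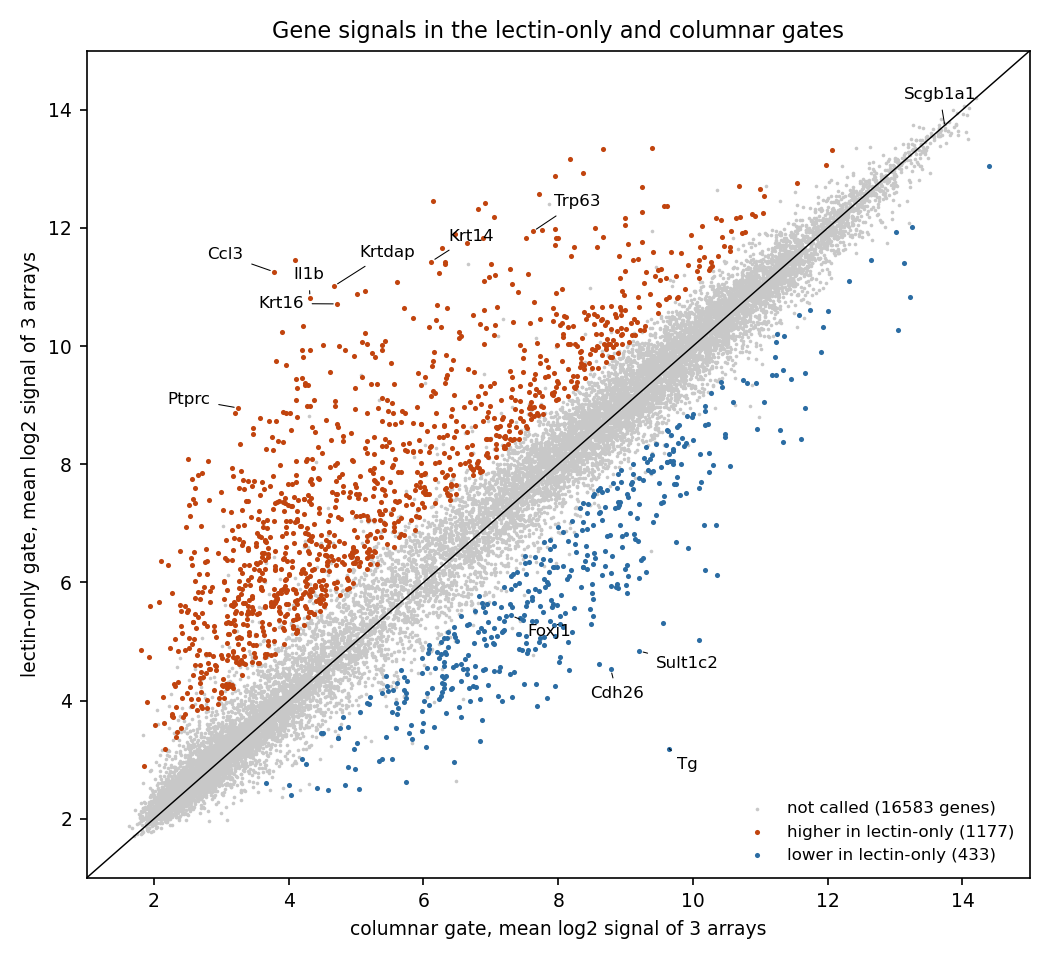
Mean log2 signal of each gene in the lectin-only gate against its mean in the columnar gate, with called genes coloured and selected genes labelled. The 1177 genes called higher lie above the diagonal and the 433 called lower lie below it.

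Several signalling genes of basal cells had their highest level in the GFP+ gate, a middle level in the lectin-only gate and the lowest in the columnar gate. Among 23 Notch pathway genes 4 were called higher and 0 lower, against 6.47% and 2.38% of all genes. Of the 4, Jag2 and Dlk2 also stand in the basal list. Jag2, a Notch ligand of basal cells, read 9.32, 9.40 and 9.64 against 6.27, 6.25 and 6.49, with GFP+ arrays at 12.31, 11.54 and 11.67, so that the 3 gates formed 3 separate steps (3.12 ± 0.22 over columnar, adjusted p = 6.1e-05, and lower than GFP+ by 2.39, adjusted p = 0.0006). Dll1, another ligand, was 1.73 ± 0.26 higher than in the columnar gate (adjusted p = 0.0025) and 2.89 lower than in the GFP+ gate (adjusted p = 0.00048). The receptor Notch1 was 1.79 ± 0.20 higher (adjusted p = 0.00051) and differed from the GFP+ gate by -0.53, not called. Dlk2 was higher by 1.25 ± 0.29 (adjusted p = 0.023). Its call ended with arrays centred (adjusted p = 0.0644), under further quantile normalization (adjusted p = 0.0972) and with array weights (adjusted p = 0.0517). It also ended without any 1 of lectin-only arrays 1 and 3 and columnar arrays 1 and 3 (adjusted p from 0.069 to 0.0769).

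Of 34 measured Wnt pathway genes, 6 were called higher and 0 lower (1 lower without GFP+ array 2), against 6.47% and 2.38% of all genes. The ligand Wnt10a read 5.77, 5.77 and 5.74 against 2.95, 3.17 and 3.63 and 8.60, 8.37 and 8.50 in the GFP+ gate, again 3 steps without overlap (2.51 ± 0.20, adjusted p = 9.6e-05, and lower than GFP+ by 2.73, adjusted p = 0.0002). The secreted antagonist Sfrp1 was 2.99 ± 0.41 higher than in the columnar gate and 2.11 lower than in the GFP+ gate (adjusted p = 0.02). Wnt4 and Wnt9a, further ligands, and Dkk3, a secreted Dickkopf relative, were higher by 2.38 ± 0.27, 2.17 ± 0.26 and 2.20 ± 0.34, with another probe set of Wnt9a at -0.14. Of 12 measured EGF family genes 3 were called higher. Ereg, epiregulin, read 9.47, 9.95 and 10.22 against 5.48, 4.47 and 5.73 (4.65 ± 0.67, adjusted p = 0.0019), and Epgn, epigen, was higher by 3.18 ± 0.57. The receptor Egfr was higher by 1.28 ± 0.24, but by 0.78 with the mean of its probe sets.

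Cell cycle genes leaned higher, although a minority were called. Of 22 measured mitosis genes 8 were called higher and 0 lower, against 6.47% and 2.38% of all genes. All 22 differences were above 0, as were 10736 of the 18193 over all genes, and the median was 1.18. In 16 the lectin-only arrays lay above all columnar arrays, which held for 16.0% of all genes. The count called higher was 5 with arrays centred, under further quantile normalization and without lectin-only array 1 or 2 or columnar array 1. Ccnb2, cyclin B2, read 7.96, 8.02 and 8.55 against 6.55, 7.04 and 6.53 (1.47 ± 0.29, adjusted p = 0.0092). The checkpoint kinase Bub1b and the survivin gene Birc5 were higher by 1.43 ± 0.26 and 1.32 ± 0.25. Mki67, a marker of cycling cells chosen after its values were seen, read 8.86, 9.77 and 9.23 against 7.53, 8.81 and 7.09 and was not called (1.48 ± 0.52, adjusted p = 0.12). Of 23 DNA replication genes 4 were called higher, 2 without lectin-only array 1 or 3 or columnar array 1 and with array weights or the mean of probe sets, and the median was 0.55, with Prim1, the primase subunit, highest at 1.68 ± 0.22. Cenpf at 2.25 and E2f1 at 1.63 were 0.68 and 0.71 with the mean of their probe sets and then not called. Among 28 immediate early and stress genes, which respond to handling as well as to growth signals, 4 were called higher, against 6.47% of all genes. The count was 2 without lectin-only array 3 or columnar array 1 or 3. The median was 0.15, against 0.07 over all genes. Myc was 1.85 ± 0.27 higher (adjusted p = 0.0021) and 1.66 lower than in the GFP+ gate (adjusted p = 0.0098).

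Markers of stromal cells were checked because digested trachea can release them. Of 18 endothelial genes 5 were called higher, against 6.47% of all genes. Their summed signal was 523 to 835 in lectin-only, 374 to 487 in columnar and 292 to 323 in GFP+ arrays. The count of endothelial genes called higher was 3 without lectin-only array 1, columnar array 1 or GFP+ array 3, and 2 under further quantile normalization. Tek, the angiopoietin receptor, was 2.48 ± 0.45 higher without overlap (adjusted p = 0.0063), and the junction protein Cldn5 was at least 2.27-fold higher (adjusted p = 0.0019). The vessel cadherin Cdh5 read at most 3.80 on the 6 arrays and was not called. Of 18 fibroblast genes 4 were called higher, against 6.47% of all genes, with a median of 0.22. The summed signal of the fibroblast list was 3822 to 5304 in lectin-only, 1432 to 1712 in columnar and 3501 to 4314 in GFP+ arrays. Vim, vimentin, which leukocytes also make, read 11.75, 11.19 and 11.67 against 8.40, 7.05 and 9.10 (3.35 ± 0.49, adjusted p = 0.002), and the matrix protein Fbln1 was higher by 2.40 ± 0.42. Dcn, decorin, was higher by 1.86 ± 0.21 yet 2.51 lower than in the GFP+ gate (adjusted p = 0.00036), and its difference from the columnar gate was 0.95 with the mean of its probe sets.

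Of 12 smooth muscle and myoepithelial genes, 5 were called higher, against 6.47% of all genes. The count was 3 with arrays centred, under further quantile normalization and without lectin-only array 1, columnar array 1 or 2, or GFP+ array 3. Acta2, smooth muscle actin, read 8.36, 6.65 and 6.09 against 3.99, 3.46 and 3.87 (3.26 ± 0.53, adjusted p = 0.0035), while its other probe sets lay at 0.11 and 0.31. Mylk, myosin light chain kinase, was higher by 3.11 ± 0.63 (adjusted p = 0.011), with other probe sets at -0.24 and 0.38. The summed signal of this list was 5942 to 6559 in lectin-only, 3696 to 5003 in columnar and 5758 to 6968 in GFP+ arrays. Of 10 measured cartilage, Schwann and erythroid genes limma called 0, with 2 at an unadjusted p under 0.05, and 1 was called lower with the mean of probe sets or without columnar array 2. The part of stromal RNA in these results was not tested.

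Detoxification genes went both ways, with 6 of 35 called higher and 6 lower, against 6.47% and 2.38% of all genes. Besides Aldh1a3 and Ces2f, the carboxylesterases Ces2b and Ces1g were higher by 3.37 ± 0.64 and 2.05 ± 0.45, and besides the 2 sulfotransferases, the flavin monooxygenase Fmo1 and the sulfotransferase Sult1a1 were lower by 1.52 ± 0.27 and 1.59 ± 0.33. These 4 genes were chosen after their values were seen. Cyp1b1, a cytochrome of the aryl hydrocarbon receptor response, was higher by 3.79 ± 0.93 (adjusted p = 0.029), and the call ended without any 1 of 5 of the 6 arrays (adjusted p from 0.0564 to 0.103).

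Of 22 measured ion and water transport genes, 5 were called higher and 1 lower, against 6.47% and 2.38% of all genes. Aqp3, the aquaglyceroporin of basal cells, read 12.24, 12.79 and 12.07 against 10.21, 9.20 and 9.41 (2.76 ± 0.30, adjusted p = 0.00046). Clca2 and Clca3a1, members of the calcium-activated chloride channel regulator family, were higher by 4.63 ± 0.44 and 3.26 ± 0.46. The anion exchanger Slc26a4 and the water channel Aqp1 were higher by 2.13 ± 0.39 and 2.10 ± 0.38. The gene called lower was Scnn1b, a subunit of the epithelial sodium channel, at 6.17, 6.30 and 7.86 against 8.90, 8.63 and 8.66 (-1.95 ± 0.53, adjusted p = 0.045). It was chosen after its values were seen, and the count of lower genes ranged from 0 to 2 when single arrays were left out and was 4 with arrays centred.

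Among 17 measured tight junction genes, Cldn4 was 1.57 ± 0.22 higher (10.04, 10.36 and 10.23 against 8.65, 8.89 and 8.37, adjusted p = 0.0017), and Cldn1 2.58 higher, which was 0.83 with the mean of its probe sets. Cldn10, a claudin of secretory cells, was lower by 1.17 ± 0.22, at 9.92, 9.80 and 10.48 against 11.36, 11.13 and 11.22 (adjusted p = 0.0074). The claudins named here thus did not share a direction. Cldn4 was also 1.36 higher than in the GFP+ gate (adjusted p = 0.0098), whose arrays shared no overlap with the lectin-only ones.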

How the data were processed

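RNA of 9 sorted samples, 3 biological replicates per gate, was labelled and hybridised to Affymetrix mouse expression arrays. The authors deposited log2 probe set signals made with RMA, per the submitters' processing notes (software not given in the sources used here). RMA includes a quantile normalization step, but the probe set signals of lectin-only array 3 had a higher median, so other scalings were tried.

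Of 45101 probe sets, 34945 had 1 gene symbol in the platform annotation, 932 had several and 9160 none; 34742 symbols matched RefSeq. Limma 3.58.1 in R 4.3.3 (lmFit, eBayes) fitted gate means to all 9 arrays, with 6 residual degrees of freedom, and p-values were adjusted by Benjamini-Hochberg over 18193 genes. The script was tested on simulated data. The number of arrays limits the precision, with a median SE of 0.24. Where a gate lay under background on all 3 arrays, the dim arrays were set to at least that level and the fold is a bound ("at least"). Summed signals add the linear values of a list's genes on each array, so bright members weigh most. Alternatives were centring on array medians, further quantile normalization, fits to the gates compared, array weights, a replicate block, means of probe sets, a filter on dim genes, trend with robust fitting, and leaving out each array.

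Named genes were the 12 largest called increases and 12 largest decreases without overlap, leaving out clone and model names, and from each of 34 lists up to 5 called members of largest change, or 2 members of largest difference where none was called, with Krt5, Krt14, Krt16, Trp63, Ptprc, Il1b, Scgb1a1, Foxj1, Epcam and Cdh1; Ggta1, which the rule also holds, was not analysed here. Other genes in the text were chosen after their values were seen. The lists and genes were chosen with earlier results of these data known. Deviations of same-numbered arrays correlated at -0.05, -0.06 and 0.09 between the lectin-only and columnar gates, at -0.07, 0.33 and 0.33 between the lectin-only and GFP+ gates, and at 0.23, 0.04 and 0.19 between the columnar and GFP+ gates. Arrays with different numbers correlated at -0.13 to 0.17, at -0.47 to 0.17 and at -0.27 to 0.09 for the same pairs of gates. Not every same-numbered pair exceeded 0.1, so the numbers were not taken to pair the samples. Whether the numbers pair the GFP+ samples with those of another gate was not tested further.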

Additional observations from a re-analysis of the deposited data

How the results depend on the processing

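Of 1177 higher and 433 lower genes against the columnar gate, the counts were 974 and 699 with arrays centred, 963 and 684 under further quantile normalization, and between 928 and 1250 and between 319 and 489 when single arrays were left out. Of the 1610 calls, 1405 were also called the same way with arrays centred. Against the GFP+ gate, 163 lower genes became 256 with arrays centred and 260 under further quantile normalization. Leaving out single arrays there gave 373 to 633 calls in all (680 with all arrays), 288 to 517 higher (517) and 85 to 163 lower (163), with the lowest counts without GFP+ array 1, 310 higher without lectin-only array 3 and 96 lower without lectin-only array 1.

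With a replicate block, although the numbers were not taken to pair the samples, 1785 genes were called against the columnar gate (1313 higher and 472 lower) and 906 against the GFP+ gate (703 higher and 203 lower).

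Of the 144 called named genes, 32 lost the call under at least 1 alternative and 0 reversed. Among them, 64 genes had other probe sets, 113 in all, not each of which is given above. Of these, 57 differed at least 2-fold in the same direction and 39 by less than 0.5 in size. The sign was opposite in 9, by at most 0.51. Only uncalled genes changed sign. Scgb1a1, at -0.050, was 0.021 under further quantile normalization and ranged from -0.0935 to 0.015 when single arrays were left out, being above 0 without columnar array 2. Epcam, at 0.034, was -0.21 with arrays centred, -0.012 under further quantile normalization, and from -0.22 to 0.20 when single arrays were left out, being -0.032 without columnar array 2 and -0.014 without columnar array 3. The cause was not tested.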
